A study of Mus musculus with 2 samples.

Results

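Apoe, Gm26802 and Slc1a5 are 3 genes of mouse chromosome 7 that stood far lower in a GATA-1 knock-in library than in a wild-type library of bone marrow progenitors. They were chosen by symbol among the 31053 gene IDs measured, on the difference between these same libraries, so their ratios below describe the libraries and carry no test. The study compared bone marrow cells of GATA-1 mutation knock-in mice, whose allele the series title calls 2RA, with cells of wild-type mice, and asked how cell populations and gene regulation differ. Cells were sorted by flow cytometry as Lin- Kit+, which selects immature cells with Kit on their surface and no markers of finished lineages, and were profiled by droplet 3' single-cell RNA sequencing. There was 1 knock-in and 1 wild-type library. The labels used here give no strain, age, sex or number of animals for either genotype, nor which residues the mutation changes. With 1 library per genotype no difference has a replicate check, and intervals below are 95% intervals that cover counting error only.

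Apoe encodes apolipoprotein E, a secreted protein that carries cholesterol and other lipids and binds lipoprotein receptors on cells. Liver cells and macrophages are its best-known sources, and in mouse marrow it is known to act on stem and progenitor cells together with the cholesterol exporters Abca1 and Abcg1. Slc1a5 encodes ASCT2, a sodium-dependent exchanger of neutral amino acids and a main route of glutamine into dividing cells. Gm26802 is annotated as a long intergenic non-coding RNA, with no role described here. GATA-1 is the transcription factor that drives red cell, megakaryocyte, mast cell and eosinophil differentiation, and Gata2 is the GATA factor of earlier progenitors.

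In mm10 with GENCODE M21, Apoe (ENSMUSG00000002985) spans chr7:19696109-19699188 on the minus strand, 3080 bp with 11 annotated transcripts of up to 5 exons, and no other gene overlaps it. Gm26802 (ENSMUSG00000097266) spans chr7:19298260-19300770 on the minus strand, with 1 transcript of 2 exons. Its start lies 0.398 Mb below that of Apoe. Slc1a5 (ENSMUSG00000001918) spans chr7:16781340-16798274 on the plus strand, with 8 transcripts of up to 9 exons, 2.92 Mb below Apoe. The promoter windows of the 2 genes that lie close together are shown because the study alters a DNA-binding factor whose motif can be looked for in them. Both are RefSeq windows of GRCm38.p6, from 250 bases before to 50 bases after the annotated start, read 5' to 3' on the minus strand (Apoe, chr7:19699139-19699438; Gm26802, chr7:19300744-19301043). Capitals mark the letters CACCC, the core that Krüppel-like factors bind.

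Apoe promoter: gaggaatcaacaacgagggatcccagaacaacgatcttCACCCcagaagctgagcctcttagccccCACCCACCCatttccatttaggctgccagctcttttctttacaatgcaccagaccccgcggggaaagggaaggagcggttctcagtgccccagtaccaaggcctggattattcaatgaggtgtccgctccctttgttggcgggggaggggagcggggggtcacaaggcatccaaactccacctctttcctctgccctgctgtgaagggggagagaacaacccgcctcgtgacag

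Gm26802 promoter: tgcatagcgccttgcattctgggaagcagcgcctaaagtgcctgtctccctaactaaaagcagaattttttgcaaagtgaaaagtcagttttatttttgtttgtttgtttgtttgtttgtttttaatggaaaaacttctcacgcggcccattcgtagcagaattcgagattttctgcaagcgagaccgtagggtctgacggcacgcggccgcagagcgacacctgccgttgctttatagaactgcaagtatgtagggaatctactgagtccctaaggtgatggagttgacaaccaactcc

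The Apoe window holds 3 CACCC matches, 2 of which overlap, and the Gm26802 window holds 0. CACCC occurs on either strand in 57.5% of the 32851 windows of the table. Neither window holds a GATA motif, here GATA preceded by A or T and followed by A or G, on either strand, and 29.8% of all windows hold one. A match is a description of letters only, and its absence says nothing about binding elsewhere. RefSeq lists 3 windows for Apoe and 1 for Gm26802.

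The filters kept 5500 knock-in and 5489 wild-type cells, with 43629184 and 64350027 UMIs, each UMI standing for 1 captured molecule of RNA. The median cell held 5272.5 UMIs in the knock-in and 9635 UMIs in wild type, so shares of cells with a UMI are also given after each cell was thinned to 2000 UMIs. The files share 10 barcodes between the libraries. Barcodes over the mitochondrial limit made up 11.4% of the knock-in and 23.0% of the wild-type file. Gata1 itself stood at 101 CPM, its UMIs scaled to the summed UMIs of the same cells, in knock-in and 88.0 CPM in wild-type cells, which does not check the genotype labels, since the mutated allele can be transcribed at its usual level. Kit, the sorted marker, was found in 56.0% of knock-in and 64.5% of wild-type cells. Cells were clustered without the 3 genes or any gene around them, and a class name means only that the cells resembled that class by its markers. There were 7 classes with at least 100 cells in each library. Early erythroid cells numbered 3040 knock-in and 2185 wild-type cells, of which the knock-in cells lay mostly in clusters 0, 3, 8 and 10 and the wild-type cells in clusters 0, 2, 11 and 12, so few erythroid clusters hold many cells of both libraries. Of the erythroid clusters, 0 and 19 had at least 50 cells in each. The erythroid clusters were named from their scores over 9 detected markers, and their 10 leading genes held few or none of these. Across all 7 classes the median gene differed by less than 0.1 on the log2 scale.

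By class, wild-type Apoe RNA was highest in basophil and mast cells and in megakaryocyte cells. It was intermediate in early erythroid cells and in stem and multipotent cells, and low in myeloid progenitors. Within the early erythroid class, wild-type cluster 0 stood above every class level, at 1928 CPM (1869 to 1987). Over all kept cells Apoe had 982 UMIs in the knock-in and 21664 UMIs in wild type, or 22.5 and 337 CPM, a log2 ratio of -3.90 (-4.00 to -3.81). The fall in the knock-in was seen in every one of the 7 classes, and was smallest in megakaryocyte cells.

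Basophil and mast cells, which carry IgE receptors and granule proteases, had 29 Apoe UMIs in 184 knock-in cells and 1651 UMIs in 165 wild-type cells. Their level was 34.5 CPM in the knock-in and 1599 CPM in wild type, a log2 ratio of -5.53 (-6.12 to -5.01). In this class the 9 basophil and mast cell markers summed to 1535 CPM in the knock-in and 3211 CPM in wild type, and 6 eosinophil markers to 83.2 and 2008 CPM. Prg2 and Prg3, eosinophil granule proteins, were among the 10 leading genes of cluster 14, and the part of these cells in the Apoe result was not tested. A class that led every other in wild type by Apoe level thus stood below the megakaryocyte class in the knock-in.

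Megakaryocyte cells, the platelet precursors, held the most Apoe in the knock-in. They had 493 knock-in and 5415 wild-type UMIs, at 168 CPM in the knock-in and 1285 CPM in wild type. The log2 ratio of -2.94 (-3.07 to -2.81) overlapped only that of neutrophil progenitors among the other 6 classes.

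Early erythroid cells had 380 Apoe UMIs in the knock-in and 12004 in wild type. Their level was 13.1 CPM in the knock-in and 352 CPM in wild type, a log2 ratio of -4.75 (-4.90 to -4.60). This ratio moved with the processing. It was -5.63 under the stricter cell filter, -6.72 when knock-in cells were assigned to wild-type clusters and -4.16 as the mean of each cell's own CPM.

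Stem and multipotent cells, which hold the least committed progenitors, had 60 knock-in and 809 wild-type Apoe UMIs. They stood at 27.3 CPM in the knock-in and 347 CPM in wild type, a log2 ratio of -3.67 (-4.07 to -3.29). The wild-type level lay within the counting interval of the early erythroid level, so the order of these 2 classes in wild type is not resolved, whereas the knock-in levels of 27.3 and 13.1 CPM had intervals that did not overlap.

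Lymphoid-primed cells had 4 knock-in and 558 wild-type Apoe UMIs, at 2.15 and 174 CPM, a log2 ratio of -6.34 (-8.22 to -4.97). Neutrophil progenitors had 5 knock-in and 353 wild-type UMIs, at 2.82 and 54.1 CPM, a ratio of -4.26 (-5.89 to -3.03). Monocyte progenitors had 3 knock-in and 393 wild-type UMIs, at 0.992 and 38.2 CPM, a ratio of -5.27 (-7.55 to -3.71). With so few knock-in UMIs these 3 ratios cannot be ordered against each other. Wild-type barcodes under 1000 UMIs stood at 200 CPM of Apoe (167 to 237), near the lymphoid-primed level and above both myeloid levels. Free RNA was not estimated, and its part in the levels of these 3 classes was not tested. The lymphoid-primed ratio was -4.35 under the stricter filter and -4.26 when knock-in cells were assigned to wild-type clusters, and the neutrophil ratio was -6.41 without the 3 highest cells of each library.

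**Figure D1:**
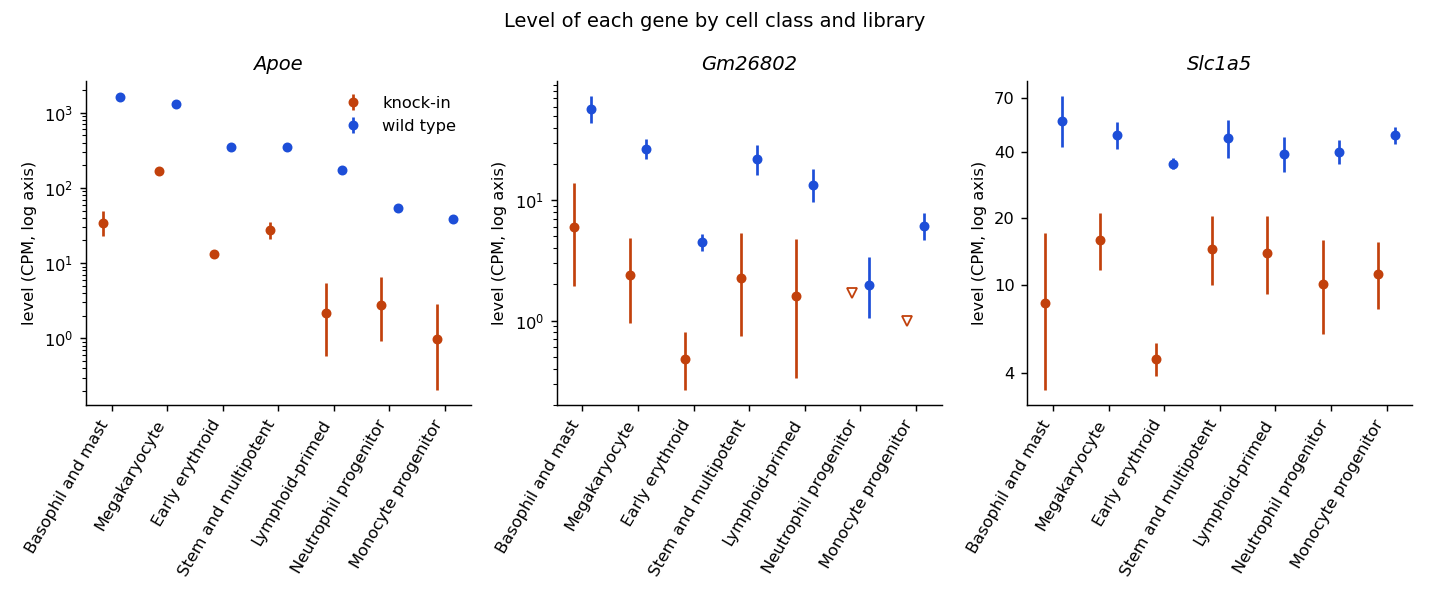
Level of Apoe, Gm26802 and Slc1a5 (CPM, log axes) in the 7 cell classes, knock-in left of wild type. Bars are 95% Poisson intervals, and open triangles mark a class with 0 knock-in UMIs at the floor of 3 UMIs. Every knock-in Apoe and Slc1a5 level lies below its wild-type level, and Apoe in megakaryocyte cells is the highest knock-in level, at 168 CPM.

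**Figure D2:**
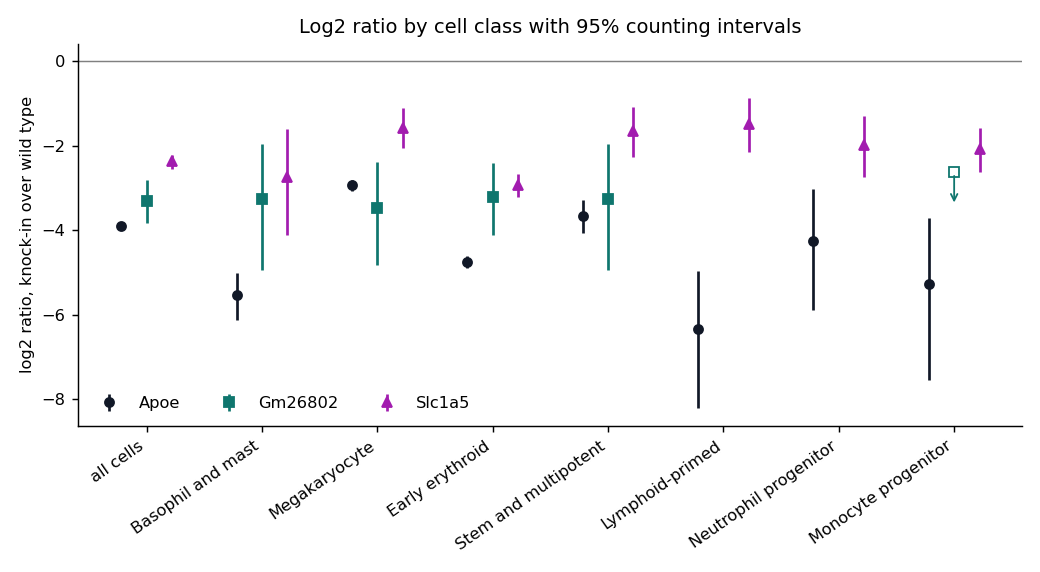
Log2 ratio of knock-in over wild type for each gene over all cells and by class, with 95% counting intervals, for classes with at least 50 UMIs in 1 library. The open square is a ratio set against a floor of 3 knock-in UMIs, with an arrow for lower. Apoe spans -6.34 to -2.94 over the classes, and Slc1a5 spans -2.93 to -1.48.

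Fewer cells held any Apoe RNA in the knock-in, and megakaryocyte cells were the class that most often did. At least 1 Apoe UMI was found in 9.58% of knock-in and 58.7% of wild-type cells. The share was 40.3% in knock-in and 96.6% in wild-type megakaryocyte cells. Basophil and mast cells with a UMI made up 9.24% of the knock-in and 87.9% of the wild-type cells of their class. In early erythroid cells it was 7.89% in the knock-in and 78.8% in wild type, at median depths of 6353.5 and 15615 UMIs. After thinning to 2000 UMIs per cell, which left out 299 knock-in and 107 wild-type cells, the shares over all cells were 5.48% and 37.1%. Thinned shares were 24.3% in knock-in and 81.5% in wild-type megakaryocyte cells. The thinned basophil and mast class had 4.85% and 83.3%, and thinned early erythroid cells had 4.32% and 50.3%. At equal depth the libraries thus still differed in these classes. Free RNA can give a cell a UMI of a gene it does not express, and no class is known to lack Apoe altogether. The lowest wild-type thinned share was 5.04%, in monocyte progenitors, and such a share cannot be told apart from background RNA. Knock-in shares of 0 in thinned lymphoid-primed and monocyte progenitor cells mean that no UMI was drawn.

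High-Apoe cells were almost absent from the knock-in. Cells with 10 or more Apoe UMIs made up 0.373% of knock-in and 44.9% of wild-type megakaryocyte cells. No knock-in basophil or mast cell reached 10 UMIs, against 46.1% of wild-type ones, and no knock-in early erythroid cell did, against 22.2%. The highest count in a single cell was 12 in the knock-in and 52 in wild type. These counts were not thinned, and the wild-type cells were deeper. Median UMIs per cell were 5040 in knock-in and 7313 in wild-type megakaryocyte cells. They were 3881.5 and 6135 in basophil and mast cells, and 6353.5 and 15615 in early erythroid cells. The classes that supplied the RNA differed too. Megakaryocyte cells gave 50.2% of the knock-in and 25.0% of the wild-type Apoe UMIs, though they made up 9.75% and 9.53% of the cells. Early erythroid cells gave 38.7% of the knock-in and 55.4% of the wild-type Apoe UMIs, from 55.3% and 39.8% of the cells. These shares depend on how cluster 0, here counted as erythroid, is named. At Leiden resolution 1.6, 474 of its wild-type cells, with 3748 Apoe UMIs, took the megakaryocyte name. So did 154 of its knock-in cells, with 113 Apoe UMIs. Which class supplied the most wild-type Apoe is therefore not settled.

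**Figure D3:**
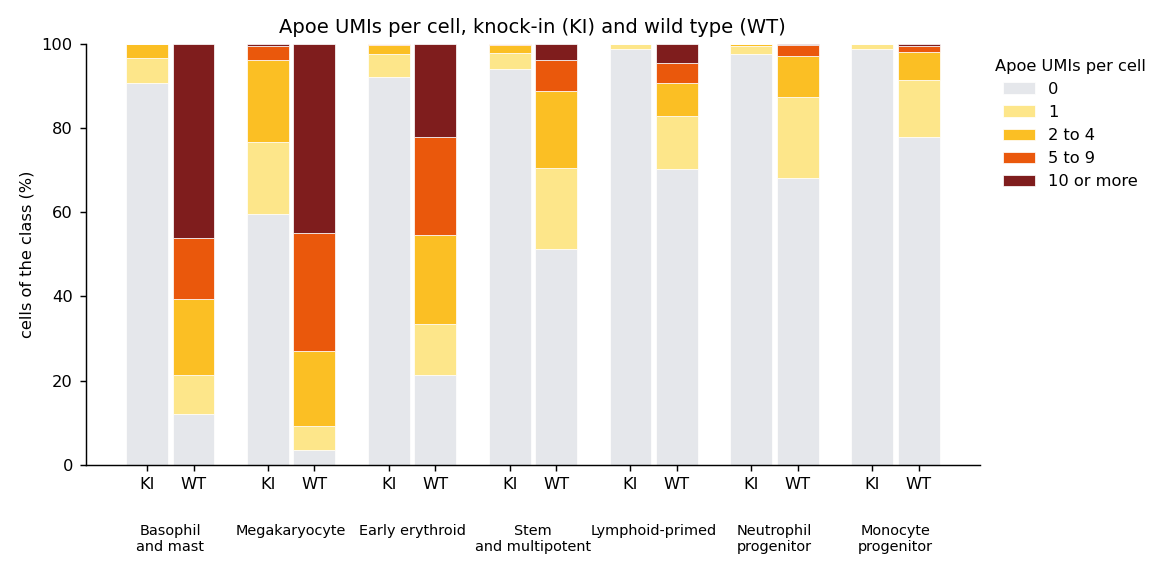
Share of the cells of each class (%) that hold 0, 1, 2 to 4, 5 to 9 or 10 or more Apoe UMIs, with the knock-in (KI) bar left of the wild-type (WT) bar. Counts are not thinned to equal depth. In wild type 46.1% of basophil and mast cells and 44.9% of megakaryocyte cells hold 10 or more, and in the knock-in megakaryocyte cells are the class with the largest share above 0, at 40.3%.

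Clusters within the erythroid class differed widely in Apoe. Cluster 0, the erythroid cells with the highest Gata2, had 335 Apoe UMIs in 1365 knock-in cells and 4107 UMIs in 514 wild-type cells, at 76.2 and 1928 CPM. Its log2 ratio was -4.66 (-4.83 to -4.50). At Leiden resolution 1.6 most of these cells fell into 2 groups that split by library. The first, named early erythroid, had 1199 knock-in and 28 wild-type cells of cluster 0, at 56.3 and 1960.2 CPM of Apoe. The second, which took the megakaryocyte name, had 154 knock-in and 474 wild-type cells of cluster 0, at 241 and 1904 CPM, a log2 ratio of -2.98 (-3.27 to -2.71). Apoe was lower in the knock-in within both groups, but the size of the difference within cluster 0 moved with how finely its cells were divided. Cluster 19 had 0 Apoe UMIs in 61 knock-in cells and 46 UMIs in 91 wild-type cells. In wild type the other large erythroid clusters held less Apoe, at 874 CPM in cluster 12, 238 CPM in cluster 11 and 68.9 CPM in cluster 2. The leading genes of cluster 2 include Rhd and Rhag, red cell membrane genes of more mature precursors. Knock-in erythroid cells outside cluster 0 held almost none, at 2.24 CPM in cluster 8, 1.92 CPM in cluster 3 and 1.64 CPM in cluster 10. These clusters have too few wild-type cells for a ratio of their own.

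The 3 megakaryocyte clusters were all lower in the knock-in, to different degrees. Cluster 7 stood at 260 CPM in the knock-in and 1577 CPM in wild type, a log2 ratio of -2.60 (-2.78 to -2.42). Cluster 15 stood at 118 and 1506 CPM, a ratio of -3.67 (-3.97 to -3.39). Cluster 18 stood at 103 and 431 CPM, a ratio of -2.07 (-2.40 to -1.74), the smallest fall among clusters with at least 50 cells in each library. The 3 intervals do not overlap, and by these values clusters 7 and 18 fell less than cluster 15. The intervals cover counting error only, and 3 cells held 28 of the 102 knock-in Apoe UMIs of cluster 15. The difference between the clusters was not tested. Clusters 7 and 18 had 4 and 5 megakaryocyte markers among their 10 leading genes and cluster 15 had 0, though cluster 15 gave 3132 of the 5415 wild-type Apoe UMIs of the class. Among lymphoid-primed cells, wild-type cluster 16 held 249 CPM and cluster 13 held 31.7 CPM, with 4.12 CPM and 0 UMIs in the knock-in.

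Gata2 was the gene whose wild-type level across clusters was most like that of Apoe, among 7911 genes with at least 500 wild-type UMIs. Likeness is Pearson's r of log2(CPM + 1) over the 17 clusters with at least 50 wild-type cells, which share 1 library and one normalisation, and it is a description with no test. The r was 0.961 for Gata2. The next 4 were Gnb4, a G protein beta subunit (0.949), Taok3, a protein kinase (0.928), Slc22a3, an organic cation transporter (0.926), and Mob3c (0.916). None of these 5 was lower in the knock-in over all cells. Their log2 ratios were 1.03 for Gata2, 0.83 for Gnb4, 0.39 for Taok3, 0.86 for Slc22a3 and 0.82 for Mob3c.

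Apoe still followed Gata2 across the 17 knock-in clusters, at a lower level, with r = 0.801. In cluster 0, Gata2 stood at 433 CPM in the knock-in and 373 CPM in wild type, while Apoe stood at 76.2 and 1928 CPM. In knock-in cluster 8, Gata2 stood at 162 CPM with Apoe at 2.24 CPM, whereas in wild-type cluster 12 Gata2 stood at 110 CPM with Apoe at 874 CPM. The ratio of Apoe UMIs to Gata2 UMIs lay between 0 and 0.731 in knock-in clusters and between 2.06 and 8.76 in wild-type clusters, without overlap. Knock-in clusters 6, 13 and 19 had 0 Apoe UMIs. Among knock-in clusters the highest ratio, 0.731, was that of megakaryocyte cluster 7, and the erythroid clusters reached at most 0.176.

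**Figure D4:**
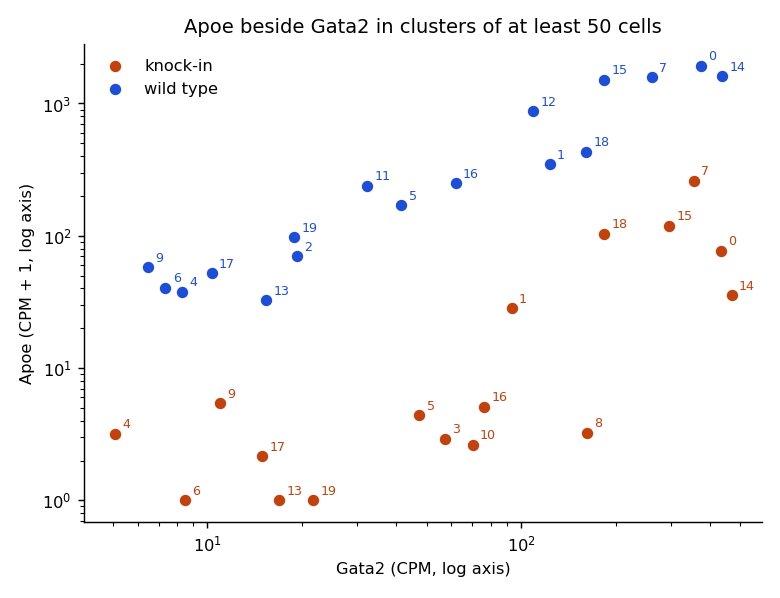
Apoe (CPM + 1) against Gata2 (CPM), both on log axes, 1 point per cluster of at least 50 cells, knock-in and wild type in different colours, with cluster numbers. All wild-type points lie above the knock-in points at a similar Gata2 level, and knock-in clusters 7, 15 and 18, the megakaryocyte clusters, are the 3 highest of their library, at 260, 118 and 103 CPM of Apoe.

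Macrophages are a known source of Apoe, so their markers are given beside it. The 17 macrophage markers summed to 35.9 CPM in knock-in and 44.9 CPM in wild-type cells. By class their sum ran from 24.1 to 38.3 CPM in the knock-in and from 24.2 to 50.4 CPM in wild type. Slc40a1, the iron exporter, gave most of these UMIs, with 963 in the knock-in and 1609 in wild type. Without it the other 16 markers summed to 13.9 CPM in the knock-in and 19.9 CPM in wild type, and 14 of the 16 had a lower CPM in the knock-in. Adgre1, which encodes F4/80, had 12 knock-in and 65 wild-type UMIs, Vcam1 had 44 and 173, Cd5l 3 and 17, Mrc1 13 and 42, and C1qa 44 and 78. Axl, with 66 and 65 UMIs, and Spic, with 32 and 33, had a higher CPM in the knock-in. These UMIs are not scaled to the larger total of the wild-type library. Marco was at 0 in the knock-in with 3 UMIs in wild type. The part of such cells in the Apoe result was not tested. The small unnamed cluster 24 held 4 knock-in and 16 wild-type cells with marker sums of 1581 and 1958 CPM. It had 1 knock-in and 64 wild-type Apoe UMIs, so it gave few of the 982 and 21664 Apoe UMIs counted over all cells.

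Gm26802 was rare in both libraries and, by class, was highest in the basophil and mast cells of wild type. In wild type, megakaryocyte cells (21.9 to 32.0 CPM) and stem and multipotent cells (16.3 to 28.7 CPM) came next, with overlapping intervals. Over all kept cells Gm26802 had 36 UMIs in the knock-in and 523 UMIs in wild type, at 0.825 and 8.13 CPM. The log2 ratio was -3.30 (-3.83 to -2.81), and 0.636% of knock-in and 6.61% of wild-type cells held a UMI.

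By class, basophil and mast cells had 5 knock-in and 59 wild-type UMIs, at 5.95 and 57.1 CPM, the highest point value of both libraries. Their knock-in interval (1.93 to 13.9 CPM) overlapped those of megakaryocyte cells (0.956 to 4.90) and stem and multipotent cells (0.739 to 5.31). The order of these classes in the knock-in is thus not resolved. Megakaryocyte cells had 7 and 112 UMIs, at 2.38 and 26.6 CPM, a log2 ratio of -3.48 (-4.83 to -2.39). Stem and multipotent cells had 5 and 51 UMIs, at 2.28 and 21.9 CPM. Each of these sums is small, and their ratios of -3.26, -3.48 and -3.26 do not differ beyond counting error. Early erythroid cells had 14 knock-in and 152 wild-type UMIs, at 0.483 and 4.46 CPM, a ratio of -3.21 (-4.11 to -2.41). The early erythroid ratio was -4.36 under the stricter cell filter, -5.41 when knock-in cells were assigned to wild-type clusters and -2.27 at Leiden resolution 1.6. That of basophil and mast cells was -5.12 without the 3 highest cells of each library. All 14 knock-in UMIs and 107 of the wild-type UMIs lay in cluster 0, at 3.18 and 50.2 CPM, while wild-type clusters 2, 11 and 12 stood at 0.563, 1.67 and 2.32 CPM. Gm26802 of the early erythroid class thus lay mostly in cluster 0, which also held the most Apoe of that class. Of the 514 wild-type cells of cluster 0, 474 took the megakaryocyte name at Leiden resolution 1.6, so this Gm26802 cannot be called erythroid with certainty. Lymphoid-primed cells had 3 knock-in and 43 wild-type UMIs. Monocyte progenitors had 0 knock-in and 63 wild-type UMIs, which with the 0 set at a floor of 3 UMIs is 6.18-fold lower. The counting interval of that log2 ratio reached up to -2.29. Neutrophil progenitors had 0 and 13 UMIs, too few to compare.

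Across wild-type clusters the gene most like Gm26802 was Slc18a2, the vesicular monoamine transporter (r = 0.936), followed by Tmod3, which caps actin filaments (0.924), Ptbp3, an RNA-binding protein (0.920), Fosb (0.919) and the mucin Muc13 (0.917). Fosb, an AP-1 transcription factor gene, is also the annotated neighbour of Gm26802, 1925 bp away on the same strand. It differed less between the libraries, at 113 CPM in the knock-in and 164 CPM in wild type, a log2 ratio of -0.53 (-0.58 to -0.48). Among the classes the Fosb ratio came closest to 0 in early erythroid cells, at -0.44. Slc18a2 stood at a ratio of 1.02 and Muc13 at 0.33 over all cells.

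Slc1a5 differed from Apoe in where it was found. In wild type it was spread over all 7 classes at similar levels, and in the knock-in it was lowest in early erythroid cells. It had 340 UMIs in the knock-in and 2595 UMIs in wild type, at 7.79 and 40.3 CPM. The log2 ratio was -2.37 (-2.54 to -2.21), 5.17-fold lower, and 5.93% of knock-in and 34.2% of wild-type cells held a UMI.

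Wild-type Slc1a5 levels ran from 35.3 CPM (33.4 to 37.4) in early erythroid cells to 55.2 CPM (41.8 to 71.5) in basophil and mast cells. Monocyte progenitors stood at 47.4 CPM (43.3 to 51.8) and megakaryocyte cells at 47.4 CPM (41.1 to 54.5), with stem and multipotent cells at 45.9 CPM (37.6 to 55.4). The intervals of these 4 classes lay above the early erythroid one, whereas those of lymphoid-primed cells and neutrophil progenitors overlapped it. The intervals of every other pair of classes overlapped, and differences between classes were not tested. In the knock-in the early erythroid level was the lowest, at 4.62 CPM from 134 UMIs, against 1205 UMIs in wild type, a log2 ratio of -2.93 (-3.20 to -2.68). That interval did not overlap those of lymphoid-primed cells, at 14.0 and 39.0 CPM (-1.48, -2.15 to -0.86), megakaryocyte cells, at 16.0 and 47.4 CPM (-1.57, -2.06 to -1.11), or stem and multipotent cells, at 14.6 and 45.9 CPM (-1.65, -2.27 to -1.07). Monocyte progenitors stood at 11.2 and 47.4 CPM, a ratio of -2.08 (-2.62 to -1.57), also outside the erythroid interval. Neutrophil progenitors, at 10.1 and 39.8 CPM (-1.97, -2.75 to -1.28), and basophil and mast cells, at 8.32 and 55.2 CPM (-2.73, -4.11 to -1.59), had intervals that overlapped it.

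By point value the larger early erythroid clusters stood apart in the knock-in. The 5 early erythroid clusters with at least 50 knock-in cells held 2.73 to 5.46 CPM of Slc1a5, and the 12 other clusters of that size held at least 8.12 CPM. Among smaller clusters, late erythroid cluster 23 stood at 37.7 CPM (12.2 to 88.0), from 5 UMIs in 20 knock-in cells. Early erythroid cluster 20 stood at 7.69 CPM, from 1 UMI in 18 knock-in cells. Some of these values rest on few UMIs, and their counting intervals overlap. Cluster 15 had 7 knock-in UMIs (3.26 to 16.7 CPM), erythroid cluster 0 had 24 (3.50 to 8.12 CPM) and erythroid cluster 19 had 1. In wild type the 5 early erythroid clusters held 12.6 to 42.1 CPM and the 12 others 34.6 to 73.9 CPM, which overlap. In cluster 0, where both libraries have many cells, Slc1a5 stood at 5.46 CPM in the knock-in and 33.8 CPM in wild type, a log2 ratio of -2.63 (-3.36 to -1.95). After thinning to 2000 UMIs the early erythroid ratio was -2.25, from 36 knock-in and 127 wild-type UMIs, and that of stem and multipotent cells -0.95, from 23 and 37 UMIs. At 4000 UMIs they were -3.32 (-3.95 to -2.74), from 27 and 264 UMIs, and -2.58 (-3.95 to -1.46), from 7 and 67 UMIs. At 2000 UMIs the intervals of these 2 classes, -2.83 to -1.71 and -1.77 to -0.16, overlapped only slightly. At 4000 UMIs they overlapped more widely, and the difference between the 2 classes was not tested at either depth. At 2000 UMIs the ratio of neutrophil progenitors was -2.87 on 2 knock-in UMIs, too few to place that class.

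The genes most like Slc1a5 across wild-type clusters were Rrbp1, which holds ribosomes on the endoplasmic reticulum (r = 0.896), Uxs1, which makes UDP-xylose (0.892), Reep3, an endoplasmic reticulum membrane protein (0.890), Cry1, a circadian clock repressor (0.889), and Calu, a calcium-binding protein of the secretory pathway (0.888). Their ratios over all cells lay between -0.16 and 0.22, far from the -2.37 of Slc1a5. Among the 3 genes themselves r was 0.721 for Apoe with Gm26802, 0.479 for Gm26802 with Slc1a5 and 0.144 for Apoe with Slc1a5. In these clusters Apoe and Slc1a5 were thus the least alike pair.

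The stretch of chromosome 7 around the 3 genes, from 1 Mb below Slc1a5 to 1 Mb above Apoe (chr7:15781340-20699188), was read for every gene by position. It has 245 annotated genes, of which 166 are in the files and 61 had 100 UMIs or more in the higher library. Of these, 8 were at least 2-fold lower in the knock-in (13.1%) and 1 was at least 2-fold higher, against 2.24% lower and 1.43% higher of the 10599 genes tested over all chromosomes. The members are part of the 8 by the rule that chose them. Without them, 5 of 58 were lower (8.62%), with a median log2 ratio of 0.14, against 0.06 over all genes. With at least 500 UMIs required, 4 were lower in place of 8, members included.

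Of the 5, Apoc1, which encodes a small apolipoprotein, lies next to Apoe, 3448 bp away on the same strand. It had 13 knock-in and 174 wild-type UMIs, a log2 ratio of -3.18 (-4.12 to -2.37). Basophil and mast cells had 1 knock-in and 19 wild-type Apoc1 UMIs, early erythroid cells 3 and 71, and megakaryocyte cells 2 and 28. In monocyte progenitors it had 5 and 24 UMIs, a ratio of -0.50 (-2.25 to 0.92) that includes no difference. Ckm, the muscle creatine kinase, had 20 and 133 UMIs, a ratio of -2.17 (-2.93 to -1.49), most of its wild-type UMIs in myeloid progenitors. Pglyrp1, a peptidoglycan-binding protein of neutrophils, had 651 and 2082 UMIs (-1.12), Qpctl, a Golgi glutaminyl cyclase, 101 and 303 (-1.02), and the predicted gene Gm45509 34 and 105 (-1.07). Mill2, an MHC class I-like gene, had 105 and 47 UMIs, a ratio of 1.72 (1.21 to 2.25). Knock-in neutrophil progenitors made up 3.15% of the cells, against 10.1% in wild type, beside the fall of Pglyrp1 over all cells.

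Tomm40, the mitochondrial import channel gene 2124 bp from Apoe on its other side, had 8061 knock-in and 12844 wild-type UMIs, a log2 ratio of -0.11 (-0.15 to -0.07). Ap2s1, a clathrin adaptor subunit gene beside Slc1a5, stood at a ratio of 0.15 (0.11 to 0.20). Rtn2, on the other side of Gm26802, had 6 and 16 UMIs, too few to measure. Within the classes, the same count without the members required at least 100 UMIs within the class in the higher library. Apoc1 did not reach this in any class, so these counts leave out its fall. With so few genes tested per class, a count of 0 or 1 is not told apart from the share of all genes. The count was 0 of 46 genes at least 2-fold lower in early erythroid cells, against 1.37% of all genes. It was 0 of 26 in megakaryocyte cells, against 1.47%, and 1 of 24 in neutrophil progenitors, which was Pglyrp1, against 1.44%. It was 0 of 10 in basophil and mast cells, against 2.71%, 0 of 29 in monocyte progenitors, against 1.19%, 0 of 20 in lymphoid-primed cells, against 1.27%, and 0 of 16 in stem and multipotent cells, against 1.25%.

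**Figure D5:**
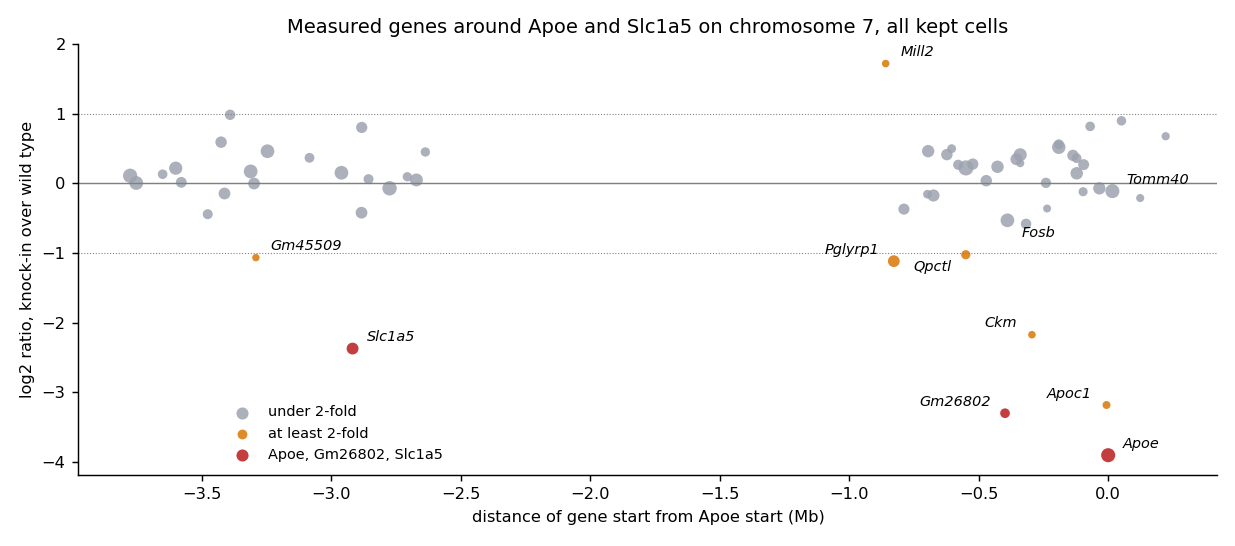
Log2 ratio of knock-in over wild type over all kept cells for the 61 measured genes of the window, against the distance of each gene's start from that of Apoe (Mb). Point size grows with UMIs and dotted lines mark 2-fold. Apoe, Gm26802 and Slc1a5 lie at -3.90, -3.30 and -2.37, beside genes such as Tomm40 at -0.11 and Fosb at -0.53.

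The genes that work with Apoe in lipid transport were counted against the 2.24% of all genes that were at least 2-fold lower and the 1.43% that were at least 2-fold higher. With lists this short, a count of 0 or 1 is not told apart from those shares. Of 7 measured lipoprotein receptors, 0 were at least 2-fold lower or higher, and their median log2 ratio was 0.003, against 0.06 over all genes. Scarb1, which takes up HDL cholesterol, stood at 31.6 CPM in the knock-in and 34.5 CPM in wild type. Lrp6 stood at 28.7 and 24.8 CPM and Lrp8 at 7.84 and 5.89 CPM. Of 14 listed apolipoprotein and plasma lipoprotein genes 11 were not measured, and of the 3 that were, Apoc1 was the 1 that was lower. Apobr, an apolipoprotein B receptor, was measured at -0.06 (-0.44 to 0.31), and Clu, the chaperone apolipoprotein J, stood at 1.88 CPM in both libraries. Below the 100 UMIs the count required, and named after their values were seen, stood Lpl and Apoa2. Lpl, lipoprotein lipase, had 14 knock-in and 80 wild-type UMIs, a log2 ratio of -1.95 (-2.89 to -1.12). Apoa2, an apolipoprotein of HDL, had 1 knock-in and 81 wild-type UMIs, a ratio of -5.78 (-11.10 to -3.26).

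Of 13 measured genes of cholesterol efflux and its LXR regulators, 0 were lower and 1 was higher, with a median of 0.06. The 1 was Abca1, the exporter that loads cholesterol onto apolipoproteins, with 276 knock-in and 182 wild-type UMIs at 6.33 and 2.83 CPM, a log2 ratio of 1.16 (0.89 to 1.44). In early erythroid cells it had 213 and 74 UMIs, a ratio of 1.76. Tspo, a cholesterol-binding protein of the outer mitochondrial membrane, stood at 383 and 417 CPM, and Npc2, a lysosomal cholesterol carrier, at 246 and 276 CPM. Of 18 sterol synthesis genes, 0 were lower and 0 higher, with a median of 0.23. Over all genes 2.24% were lower and 1.43% higher, and the counts of these 2 lists are not told apart from those shares. Fdps, which makes farnesyl diphosphate, stood at 36.2 and 61.9 CPM (-0.77), and Idi1, an isomerase of the same pathway, at 27.6 and 22.8 CPM (0.27). Srebf2, which drives sterol synthesis, stood at 29.5 and 29.2 CPM.

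Amino acid transport, the work of Slc1a5, was read in the same way, against the same 2.24% lower and 1.43% higher of all genes. Of 14 measured neutral amino acid transporters, 1 was lower and 1 higher, with a median of 0.01. Slc7a8, the LAT2 exchanger, had 573 knock-in and 195 wild-type UMIs at 13.1 and 3.03 CPM, a log2 ratio of 2.12 (1.88 to 2.36). In early erythroid cells it had 301 and 19 UMIs, a ratio of 4.22. Slc7a11, the cystine and glutamate exchanger, had 61 and 186 UMIs, a ratio of -1.05 (-1.49 to -0.62). The abundant members stood close together, with Slc3a2, the shared heavy chain, at 130.3 and 126 CPM and Slc38a2, a sodium-coupled transporter, at 117 and 119 CPM. Slc38a1 stood at 83.9 and 80.9 CPM and Slc38a5, also a glutamine transporter, at 59.5 and 51.5 CPM. Of 13 genes of glutamine use, 0 were lower and 0 higher, with a median of 0.07. Among them Gmps, which makes GMP, stood at 132 and 124 CPM, Asns, asparagine synthetase, at 106 and 99.3 CPM, Got2, a mitochondrial aminotransferase, at 121 and 126 CPM, and Ppat, which opens purine synthesis, at 91.5 and 78.6 CPM.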

How the data were processed

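The authors deposited unnormalised UMI counts for each gene in each barcode, made with Cell Ranger 3.1.0, per the file headers. The genome was mm10, per the submitters' processing notes, and the labels name a v2 3' reagent kit. How barcodes were chosen is not given in the sources used here, and the smallest total was 500 UMIs. The knock-in file holds 6640 barcodes with 48005467 UMIs and the wild-type file 7471 with 70543211.

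Cells had to reach 500 genes and 1000 UMIs, with no more than 10% of UMIs from mitochondrial genes. Scrublet marked 2.59% of wild-type cells, and 0.0692% of knock-in cells, under 0.5%, so the highest-scoring 5% were dropped there. Both libraries were clustered together (2000 variable genes, 30 components, 15 neighbours, Leiden resolution 1). Clustering did not use the members, the window genes, the lipid and amino acid lists, Gata1, Xist, Tsix, or Y-linked, mitochondrial and ribosomal protein genes. Other lists that earlier processing left out were not used here. How clusters were scored for names (a prior of 20 CPM, a floor of 0.7 on the SD, and at least 1 own marker among the top 10 genes for mature classes) was set after the clusters were seen. Background RNA was not estimated.

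UMIs were summed per library and class. Levels have exact Poisson intervals, shares exact binomial (Clopper-Pearson) intervals and ratios exact conditional binomial intervals. A gene was counted as lower or higher at 2-fold, if 1 of the libraries had 100 UMIs or more. The members and lists were chosen with earlier results of these data known. Named genes were the members, their immediate neighbours, window genes past 2-fold, the 4 most abundant of each list and those past 2-fold, and the 5 genes most like each member, and a few genes that this rule names are not reported here. Scripts were tested on simulated data. Of the 31053 gene IDs, 30934 were found in GENCODE M21, and 2 of the 3 members had a RefSeq promoter window.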

Additional observations from a re-analysis of the deposited data

Results flagged for a closer look

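Pglyrp1, a gene of the chromosome 7 window, moved in opposite directions in different classes, with counting intervals that excluded no difference on both sides. Its log2 ratio was -1.17 in neutrophil progenitors, from 188 knock-in and 1551 wild-type UMIs, and -0.59 in monocyte progenitors, from 43 and 220 UMIs. In stem and multipotent cells it was 1.45, from 208 and 81 UMIs. The difference between the classes was not tested.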

How the results depend on the processing

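No ratio changed direction under the alternatives run, and 98 of 115 values of the main results and 130 of 154 values of the others stayed within counting error or within 1.5 times for counts. Counting early and late erythroid markers apart gave the same classes. Over all cells, the Apoe log2 ratio was -4.06 under a stricter cell filter (1000 genes, 2000 UMIs, 5% mitochondrial) and -3.46 as the mean of each cell's own CPM. In early erythroid cells it was -5.63 under the stricter filter, -6.72 when knock-in cells were assigned to wild-type clusters and -4.16 as the mean of each cell's own CPM. In lymphoid-primed cells it was -4.35 and -4.26 under the first and second of these. In megakaryocyte cells it was -3.09 at Leiden resolution 1.6, where the class took in the 154 knock-in and 474 wild-type cells of cluster 0 described above, -2.77 with knock-in cells assigned to wild-type clusters and -2.69 as the mean per cell. Without the 3 highest cells of each library it was -6.12 in basophil and mast cells and -6.41 in neutrophil progenitors. The cause of these moves was not tested. Of the 8 window genes that were lower, 4 were counted with at least 500 UMIs required. The count of higher genes, 1, was 0 under the stricter filter, 2 with doublets kept, 7 at 1.5-fold and 0 at 500 UMIs. The stem and multipotent class gave no value under the stricter filter or with cells so assigned. No paired analysis was possible because each genotype had 1 library. Depth limits the ratios that rest on few knock-in UMIs, such as Apoe in lymphoid-primed cells and both myeloid classes and Gm26802 in every class.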

Other observations

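Barcodes that did not pass the filters also held Apoe RNA. Barcodes under 1000 UMIs had 21 Apoe UMIs in the knock-in and 134 in wild type, at 58.8 and 200 CPM, a log2 ratio of -1.77 (-2.50 to -1.10), against -3.90 over all kept cells. For Slc1a5 the same barcodes had a log2 ratio of -3.55 (-6.64 to -1.61), against -2.37 over kept cells. All barcodes not kept stood at 28.3 CPM of Apoe in the knock-in and 281 CPM in wild type.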
